A study of Mus musculus with 6 samples.

Results

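The genes described here make, coat and break down the triglyceride stored in cardiac lipid droplets, or supply the fatty acids for it. They were the coat proteins Plin2, Plin4 and Plin5, the lipases Pnpla2, Lipe and Mgll, the triglyceride synthases Dgat1 and Dgat2, and lipoprotein lipase (Lpl) with its inhibitor Angptl4. Members were taken by symbol through their Ensembl identifiers, and 10 of the 38293 genes in the count table were selected. RNA depleted of ribosomal RNA was sequenced in 3 libraries from WT and 3 from Zeb2 cKO hearts. These were taken 14 days after permanent occlusion of the left anterior descending artery (14 days post-MI). All mice were adult males of the strain C57BL/6J (backcrossed), and sham-operated hearts were not analysed here. The labels call the controls WT, whereas the methods describe them as Zeb2 fl/fl, carrying floxed Zeb2 alleles without Cre. In Zeb2 cKO mice the same floxed alleles are recombined by Cre under the Myh6 promoter, which is active in cardiomyocytes, while RNA came from all cells of the tissue. The labels place that tissue at the border region of the infarct, and the methods at the remote zone. The comparison asks whether loss of Zeb2 from cardiomyocytes alters the RNA of these genes in the infarcted heart.

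The heart draws most of its energy from fatty acids. Lipoprotein lipase, anchored on capillary endothelium by GPIHBP1, releases them from circulating triglyceride, and ANGPTL4 inactivates the enzyme. In cardiomyocytes, fatty acids that are not oxidised at once are esterified by DGAT1 and DGAT2 into triglyceride and stored in droplets coated by perilipins. Adipose triglyceride lipase (encoded by Pnpla2), hormone-sensitive lipase (Lipe) and monoacylglycerol lipase (Mgll) then remove the acyl chains one after another. PLIN5 ties droplets to mitochondria and restrains lipolysis, and PLIN2 is the widely expressed coat that accompanies droplet accumulation, also in macrophages. Plin2, Plin5 and Angptl4 are known targets of PPAR nuclear receptors, which sense fatty acids.

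ZEB2 binds E-boxes and is known as a repressor, whereas the paper proposes that it raises the genes Tmsb4 and Ptma through direct binding. The 250 bases before the annotated starts were therefore searched for CACCTG on both strands, the CAGGTG of the other strand included. RefSeq windows (GRCm38.p6) were matched for 6 members, Plin2, Plin4, Plin5, Pnpla2, Lipe and Mgll. Dgat1, Dgat2, Lpl and Angptl4 had no entry. At least 1 match was found for Plin5 and Pnpla2, beside 19.4% of all 27025 genes with a window. The promoters of the perilipins and of Pnpla2 are printed so that those with and without a match can be seen side by side, each 5′ to 3′ on the gene's own strand with the matches in capitals. The Plin5 match ends directly before the start, and a second Plin5 start further downstream had 2 matches in its own window. In Pnpla2 the match begins 123 bases before the start. An exact match to the consensus DR1 element bound by PPARs was found in 0 of the 6 on either strand, and in 0.0407% of all genes with a window.
Plin5 (chr17:56117549-56117798, minus strand): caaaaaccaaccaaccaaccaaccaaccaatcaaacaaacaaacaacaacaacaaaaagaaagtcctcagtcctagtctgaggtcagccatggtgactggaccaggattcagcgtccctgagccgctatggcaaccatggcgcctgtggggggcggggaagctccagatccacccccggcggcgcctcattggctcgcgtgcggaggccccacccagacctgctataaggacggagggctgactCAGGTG
Plin4 (chr17:56109783-56110032, minus strand): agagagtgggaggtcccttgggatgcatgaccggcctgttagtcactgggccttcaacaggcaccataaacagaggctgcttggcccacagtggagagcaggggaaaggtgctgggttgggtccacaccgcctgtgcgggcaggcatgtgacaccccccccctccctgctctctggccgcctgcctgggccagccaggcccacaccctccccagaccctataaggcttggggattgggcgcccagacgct
Plin2 (chr4:86670060-86670309, minus strand): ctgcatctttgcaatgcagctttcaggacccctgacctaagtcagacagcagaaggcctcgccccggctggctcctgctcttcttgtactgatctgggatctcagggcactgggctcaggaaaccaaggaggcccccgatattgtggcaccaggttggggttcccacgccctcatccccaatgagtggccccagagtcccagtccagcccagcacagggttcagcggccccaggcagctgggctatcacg
Pnpla2 (chr7:141454938-141455187, plus strand): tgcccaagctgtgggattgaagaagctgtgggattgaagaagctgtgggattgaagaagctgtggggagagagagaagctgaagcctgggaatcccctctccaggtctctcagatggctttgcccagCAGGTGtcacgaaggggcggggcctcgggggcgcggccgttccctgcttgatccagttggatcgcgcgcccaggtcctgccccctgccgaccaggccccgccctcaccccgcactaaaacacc
Plin4 and Plin5 are neighbours on the minus strand of chromosome 17, separated by 1797 bases. A match describes letters only, and binding was not measured.

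Libraries held between 37288174 and 51136331 counts, of which 60.5% to 67.0% fell on mitochondrially encoded genes. Levels are given as CPM, the counts per 1000000 counts of the TMM-normalized library, mitochondrial counts included. Zeb2 was at 61.3, 116 and 71.9 CPM in WT replicates 1 to 3 and at 59.5, 72.5 and 66.4 CPM in Zeb2 cKO replicates 1 to 3. The groups thus overlapped, and this tissue-wide count did not separate the genotypes. The paper reports the loss of ZEB2 from cardiomyocytes of infarcted Zeb2 cKO hearts by quantitative PCR and immunofluorescence. WT replicate 2 stood apart from the other 5 libraries. The summed level of 10 fibroblast markers was 9905 CPM in it against 1761 to 2418 CPM in the others, that of 10 macrophage markers 825 CPM against 213 to 293 CPM, and that of 10 cardiomyocyte markers 13545 CPM against 22637 to 28907 CPM. Fewer cells of a type and less RNA per cell cannot be told apart in such bulk tissue. Fold changes of the members are therefore given with and without this library, as are those of some of the other genes.

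All 10 members passed the filter on low counts, with at least 121 counts in every library. Divided by exon length, Lpl was by far the most abundant, at 124 ± 41.1 CPM per kilobase in WT and 125 ± 5.69 CPM per kilobase in Zeb2 cKO hearts (SD, n = 3 each). It exceeded Dgat2, the next, in 6 of 6 libraries. Dgat2 (16.9 ± 9.81 CPM per kilobase in WT), Mgll (12.8 ± 5.38), Plin4 (12.3 ± 5.13), Pnpla2 (12.2 ± 4.27) and Plin5 (11.8 ± 5.50) followed within each other's spread in WT. Dgat2 was above Mgll, and Mgll above Plin4, in 5 of 6 libraries each, and in Zeb2 cKO hearts Dgat2 (25.7 ± 4.71) lay clear of Mgll (16.1 ± 0.669). Plin4 was above Pnpla2, and Pnpla2 above Plin5, in only 3 of 6 libraries each. Plin2 lay lower at 7.54 ± 0.739 CPM per kilobase in WT, under Plin5 in 5 of 6 libraries and above Angptl4 in 6 of 6. Angptl4 (2.62 ± 0.979), Dgat1 (2.47 ± 0.542) and Lipe (2.29 ± 1.06) were the lowest, and they also lay within each other's spread. The first 7 genes kept the same order in Zeb2 cKO hearts.

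**Figure D1:**
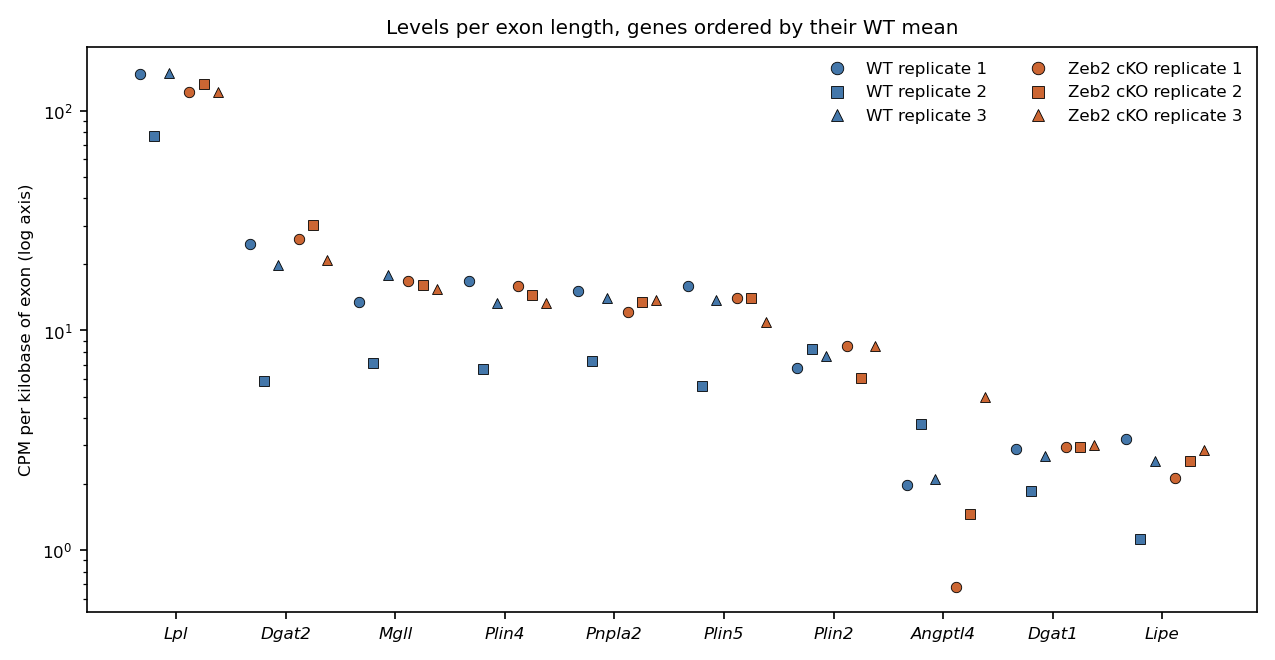
Level of each member in each of the 6 libraries, in CPM per kilobase of exon on a log axis, with genes ordered by their WT mean (blue WT, orange Zeb2 cKO, marker shapes for replicate numbers). Lpl lies highest at a mean of 124 in WT and Lipe lowest at 2.29, and the WT replicate 2 square lies below the other libraries for 8 of the 10 genes.

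The droplet coat genes did not differ between genotypes beyond the spread between replicates. Plin2 was at 23.7, 28.8 and 26.9 CPM in WT replicates 1, 2 and 3, and at 29.8, 21.4 and 29.7 CPM in Zeb2 cKO libraries. The groups overlapped, with a log2 fold change of 0.03 (SE, the standard error, 0.16) and a 95% interval from -0.36 to 0.42, the narrowest of the 10 members. The coat genes lie in GRCm38 with Plin2 (ENSMUSG00000028494) at chr4:86648386-86670060 on the minus strand, Plin4 (ENSMUSG00000002831) at chr17:56100591-56109803 on the minus strand and Plin5 (ENSMUSG00000011305) at chr17:56111601-56117596 on the minus strand. Among the members Plin2 varied least between libraries, by 1.39-fold from lowest to highest. Plin4, a coat protein abundant in fat and striated muscle, was at 96.7, 38.4 and 77.3 CPM in WT and at 92.2, 84.0 and 77.3 CPM in Zeb2 cKO libraries. Plin5, its neighbour on the chromosome and the coat typical of oxidative tissue, was at 33.4, 11.6 and 28.8 CPM in WT and at 29.3, 29.3 and 22.7 CPM in Zeb2 cKO libraries. WT replicate 2 was the lowest library for both, while the other 5 lay within 1.25-fold of each other for Plin4 and 1.47-fold for Plin5. The log2 fold change was 0.26 (SE 0.32) for Plin4 and 0.14 (SE 0.36) for Plin5. Without WT replicate 2 these became -0.039 and -0.20, and that of Plin2 was 0.098. A stretch of 13.7% of the longest Plin2 transcript is near-identical to the pseudogene Gm12551, which held at most 2 counts in any library.

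The lipase genes overlapped between genotypes as well. They lie with Pnpla2 (ENSMUSG00000025509) at chr7:141455198-141460743 on the plus strand, Lipe (ENSMUSG00000003123) at chr7:25379527-25398710 on the minus strand and Mgll (ENSMUSG00000033174) at chr6:88724412-88828360 on the plus strand. Pnpla2, which removes the first acyl chain, was at 45.7, 21.9 and 42.5 CPM in WT and at 36.7, 40.8 and 41.6 CPM in Zeb2 cKO libraries. Lipe, which acts mainly on diacylglycerol, was at 18.8, 6.65 and 14.9 CPM in WT and at 12.5, 15.0 and 16.9 CPM in Zeb2 cKO libraries. Mgll, which releases the last acyl chain, was at 68.7, 36.2 and 90.5 CPM in WT and at 85.4, 81.5 and 78.6 CPM in Zeb2 cKO libraries. In each of the 3 genes WT replicate 2 was lowest. Set against the remaining pair of WT libraries, the Zeb2 cKO libraries lay between them for Mgll, below both for Pnpla2, and between or below them for Lipe. For how many of all genes they lay below both was not determined, so no conclusion is drawn from this order. Log2 fold changes were 0.11 (SE 0.27) for Pnpla2, 0.14 (SE 0.35) for Lipe and 0.33 (SE 0.31) for Mgll, and without WT replicate 2 they were -0.15, -0.19 and 0.043. Lipe shares 15.6% of its exon bases with the antisense gene 4732471J01Rik, whose mean count was 2.

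Of the triglyceride synthases, Dgat1 was the single member in which the groups did not overlap. The pair lies with Dgat1 (ENSMUSG00000022555) at chr15:76502015-76511953 on the minus strand and Dgat2 (ENSMUSG00000030747) at chr7:99153658-99182719 on the minus strand. Dgat1 was at 8.78, 5.67 and 8.20 CPM in WT (7.55 ± 1.66, SD, n = 3) and at 9.01, 9.01 and 9.23 CPM in Zeb2 cKO libraries (9.08 ± 0.126, SD, n = 3). All 3 Zeb2 cKO libraries thus lay above all 3 WT libraries, as in 3.39% of all genes tested (exact permutation test, two-sided p = 0.1, the smallest that 3 against 3 allows). Zeb2 cKO exceeded WT hearts by 0.27 on the log2 scale (SE 0.18, adjusted p = 0.957, edgeR), and by 0.10 without WT replicate 2. This p is that of edgeR's quasi-likelihood (QL) test. The Zeb2 cKO SD of Dgat1 was 1.39% of its mean, smaller than the counting (Poisson) error of 4.49% to 5.06% in these libraries. Dgat2, which has no sequence kinship to Dgat1 and esterifies newly made fatty acids, had the largest fold change of the members with all 6 libraries. It was at 76.5, 18.2 and 61.3 CPM in WT (52.0 ± 30.2, SD, n = 3) and at 80.4, 93.2 and 64.2 CPM in Zeb2 cKO libraries (79.3 ± 14.5, SD, n = 3). WT replicate 2 held 26.4% of the mean of the other WT libraries, the lowest share among the members, and 1 of the 3 Zeb2 cKO libraries lay between the other WT libraries. The log2 fold change of Dgat2 was 0.61 (SE 0.48, 95% interval -0.52 to 1.74), and 0.20 without WT replicate 2.

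Lpl had nearly equal group means, and its inhibitor Angptl4 varied more within the Zeb2 cKO group than between the genotypes. Their loci are Lpl (ENSMUSG00000015568) at chr8:68880491-68907448 on the plus strand and Angptl4 (ENSMUSG00000002289) at chr17:33773750-33781830 on the minus strand. Lpl was at 1534, 802 and 1559 CPM in WT and at 1273, 1379 and 1279 CPM in Zeb2 cKO libraries, with a log2 fold change of 0.013 (SE 0.29). Without WT replicate 2 all 3 Zeb2 cKO libraries lay below the remaining pair of WT libraries, and the log2 fold change was -0.24 (SE 0.12, unadjusted p = 0.0848 and adjusted p = 1.00 by the QL test of edgeR). The share of all genes that separate in this way was not determined, so no conclusion is drawn from the order. Angptl4 was at 7.03, 13.3 and 7.50 CPM in WT and at 2.42, 5.18 and 17.7 CPM in Zeb2 cKO libraries. It varied most among the members, by 7.32-fold from lowest to highest, and both extremes were Zeb2 cKO libraries. Angptl4 was also the member with the widest interval, from -1.74 to 1.47 around a log2 fold change of -0.13 (SE 0.68). Without Zeb2 cKO replicate 3 the log2 fold change was -1.29 (unadjusted p = 0.0293 by the QL test of edgeR, in a comparison where 1.39% of genes were lower at an unadjusted p under 0.05), and without Zeb2 cKO replicate 1 or 2 it was 0.31 or 0.12. Repeat-like stretches shared with other genes make up 6.17% of the longest Lpl transcript.

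**Figure D2:**
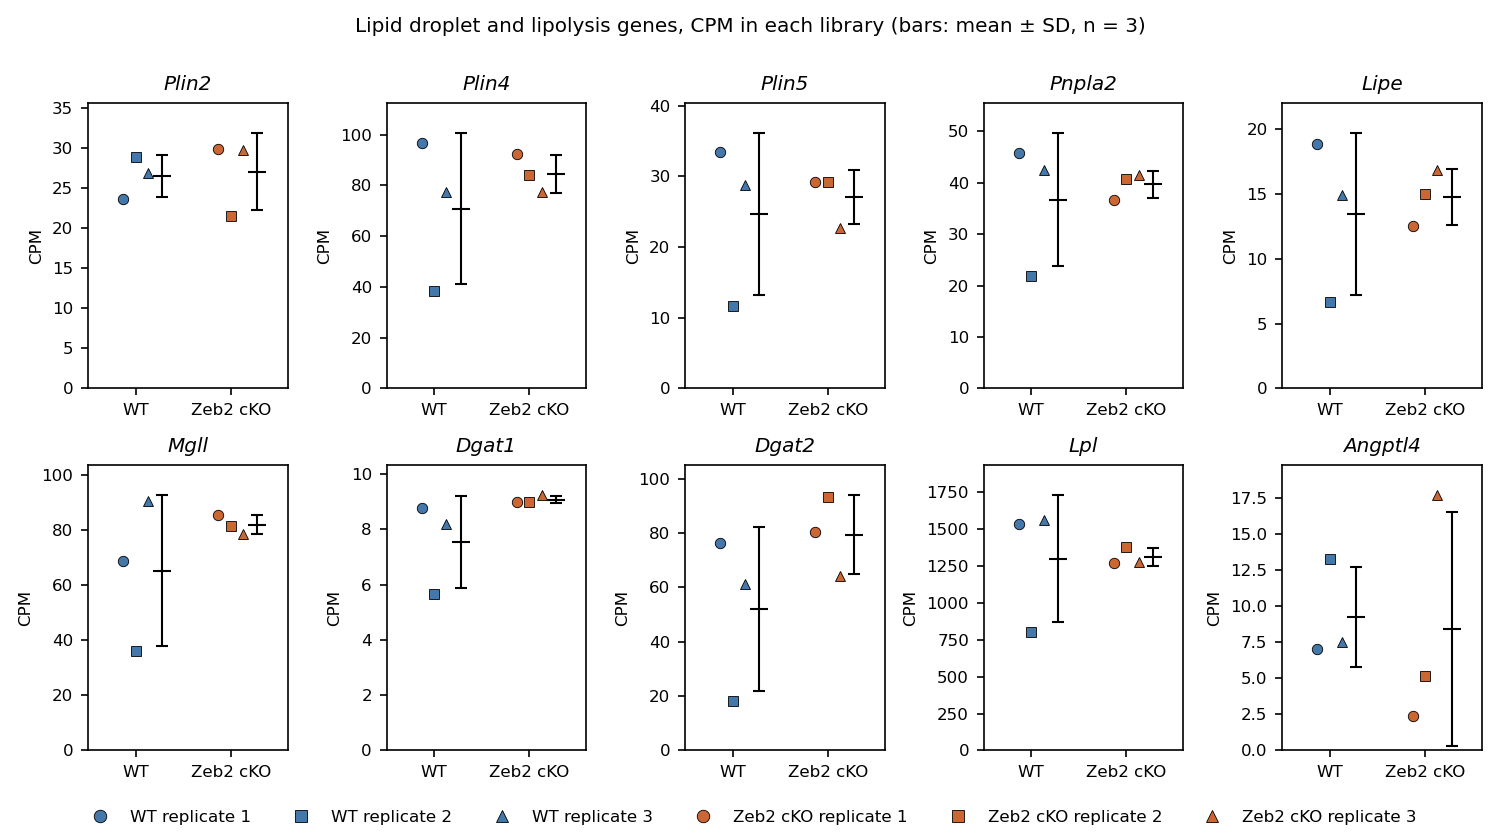
CPM of each member in the 3 WT (blue) and 3 Zeb2 cKO (orange) libraries, with marker shapes for replicate numbers and bars for the mean ± SD of each group, on axes that start at 0. WT replicate 2 is the lowest point for 8 genes, Plin2 shows overlapping groups near 26.5 and 27.0 CPM, and Angptl4 spreads from 2.42 to 17.7 CPM within the Zeb2 cKO group.

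Across the 10 members, 0 had an adjusted p under 0.05 by the QL test of edgeR (Benjamini-Hochberg over 14746 genes), where 0.0% of all genes did. An unadjusted p under 0.05 was reached by 0 of the 10, beside 280 of all genes tested (1.9%, of which 1.04% higher and 0.861% lower in Zeb2 cKO hearts). DESeq2's Wald test likewise called 0 members at either threshold, and 1 gene of the whole table, Slc46a2, which is no member, with 429 genes at an unadjusted p under 0.05. Adjusted p-values of the members ran from 0.957 to 0.998. Log2 fold changes exceeded 0.2 in 4 members (Plin4, Mgll, Dgat1 and Dgat2), a size that 15.9% of all genes tested had, and were under -0.2 in 0 members against 22.6% of all genes. Their median was 0.14, beside -0.0069 over all genes tested. In each of the 10 the WT SD exceeded the difference between the means. That SD was larger than the Zeb2 cKO SD in 8 members, with Plin2 and Angptl4 as the others. Without WT replicate 2 the median of the members was 0.0019, with 5 above and 5 below 0. Then Dgat2 and Angptl4 were over 0.2, where 14.2% of all genes were, and Lpl was under -0.2, where 11.7% were. An unadjusted p under 0.05 was then reached by 0 members, beside 2.63% of all genes. All 10 intervals included 0 with and without that library. Besides Dgat1, no member had groups that did not overlap, and groups lay apart with Zeb2 cKO lower in 2.98% of all genes.

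**Figure D3:**
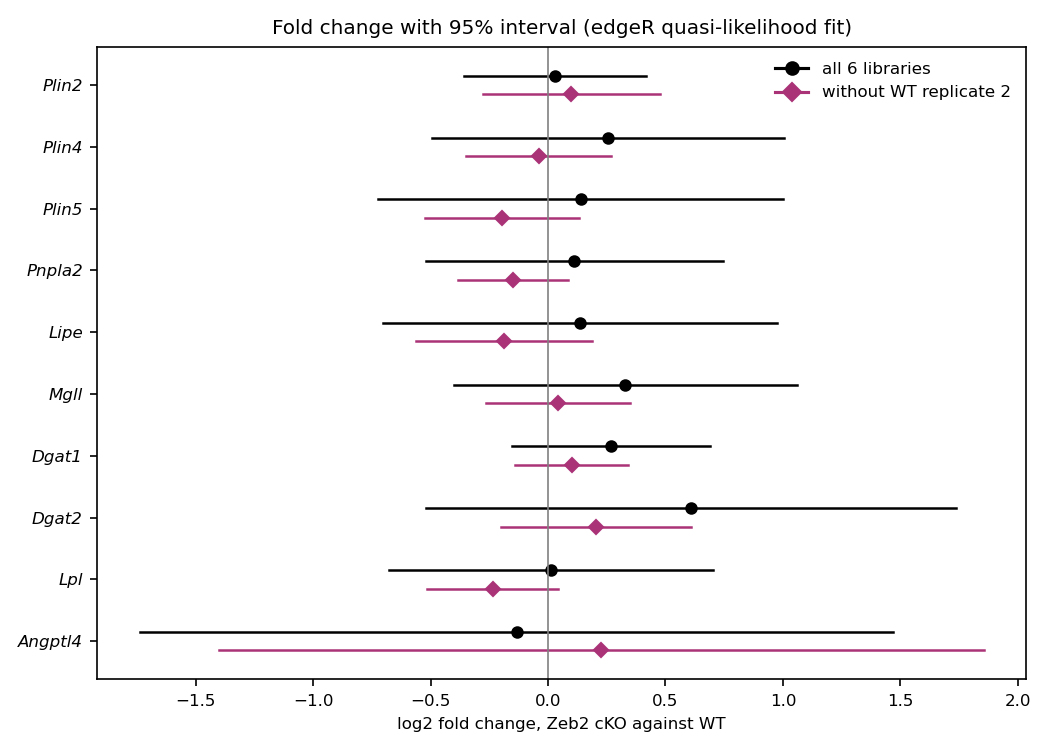
Log2 fold change between Zeb2 cKO and WT hearts (x axis) with its 95% interval for each member, from edgeR's fit on all 6 libraries (black circles) and without WT replicate 2 (purple diamonds). Every interval spans 0, and the estimates of Plin4, Plin5, Pnpla2, Lipe, Lpl and Angptl4 change sign when that library is left out.

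WT replicate 2 was the lowest of the 6 libraries in 8 members and the highest in 0, whereas it was lowest in 34.7% and highest in 35.1% of all genes tested. Relative to the mean of the other WT libraries, it held between 26.4% (Dgat2) and 66.8% (Dgat1) in these 8 genes. The exceptions were Plin2, at 114% of that mean, and Angptl4, at 182%. In the same library 9 of 10 cardiomyocyte markers were lowest, 10 of 10 fibroblast markers were highest and 9 of 10 macrophage markers were highest, with Cd163 the remaining one. Whether the make-up of this sample accounts for the members' low values was not tested. Among the other 5 libraries 9 of the members varied by at most 1.52-fold, and Angptl4 varied by 7.32-fold.

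**Figure D4:**
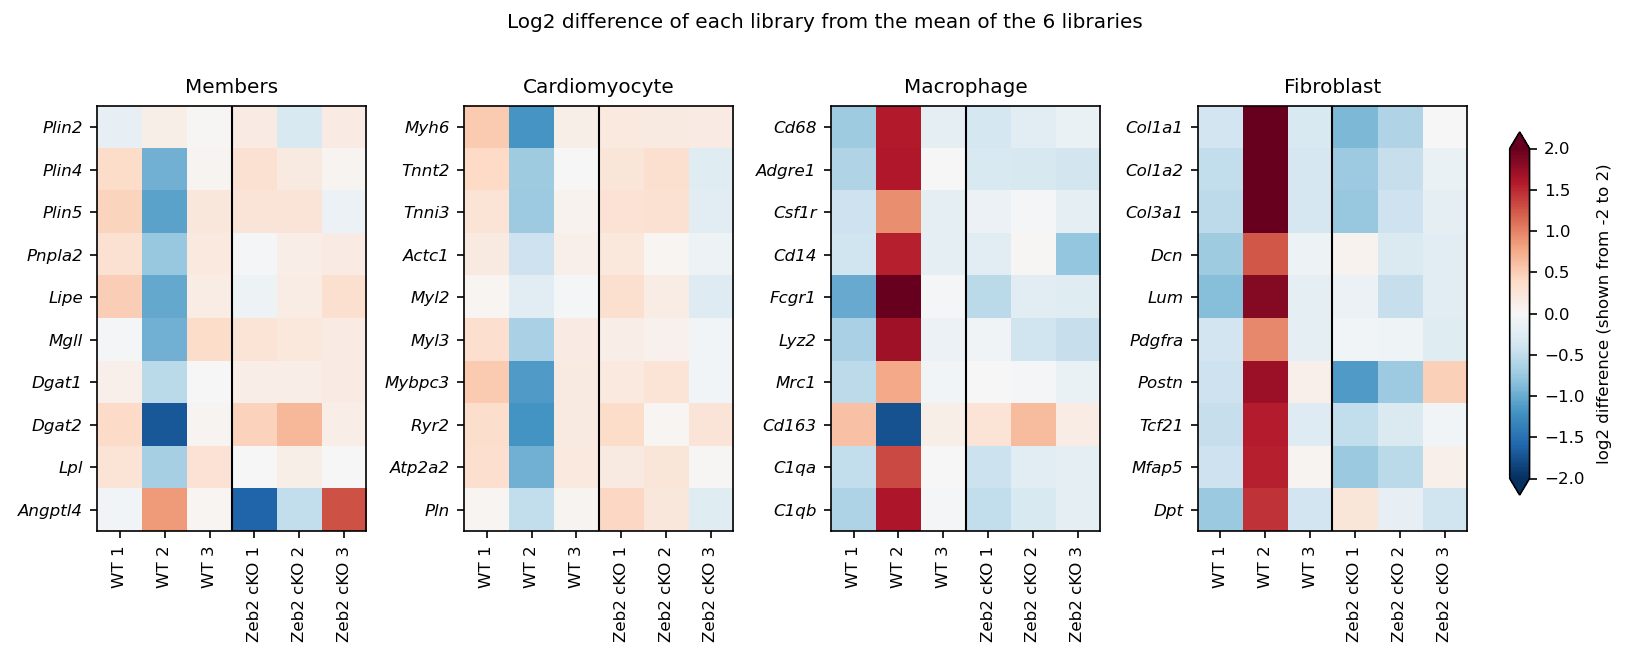
Colour map of the log2 difference of each library from the 6-library mean, for the 10 members and for 10 markers each of cardiomyocytes, macrophages and fibroblasts (rows are genes, columns libraries, a line parts WT from Zeb2 cKO). The WT replicate 2 column is blue for 8 members and for the cardiomyocyte markers, and red for Angptl4 and for all but 1 of the macrophage and fibroblast markers.

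The members were therefore also set against the mean log2 CPM of the 10 cardiomyocyte markers of the same library, a comparison chosen after seeing the data. On this scale the spread over the 6 libraries became smaller for 8 members and larger for Plin2 and Angptl4. These 8 are the members lowest in WT replicate 2 by CPM, where 9 of the 10 markers were lowest too. Subtracting the markers can by itself narrow the spread of genes low in that library. The share of all genes narrowed was not determined, so the count of 8 does not set the members apart. The SD over the 6 libraries fell from 0.49 to 0.11 for Plin4, from 0.56 to 0.17 for Plin5 and from 0.39 to 0.17 for Pnpla2. For Plin2 it was 0.20 before and 0.51 after. WT replicate 2 was then the lowest library for Plin4, Plin5 and Dgat2 and the highest for Plin2 and Angptl4. Differences between Zeb2 cKO and WT hearts were above 0 in 6 members and below 0 in 4. Dgat2 stayed the furthest above, at 0.59, with WT libraries from -5.97 to -4.97 and Zeb2 cKO libraries from -4.85 to -4.57 relative to the markers, so that its groups did not overlap (exact permutation test, two-sided p = 0.1). On this scale 1.02% of all genes tested lay apart with Zeb2 cKO higher and 1.31% with Zeb2 cKO lower. Differences of the others lay between -0.23 and 0.18, apart from -0.80 for Angptl4, and their exact permutation p was 0.2 or more. Both sets were read from the same libraries.

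**Figure D5:**
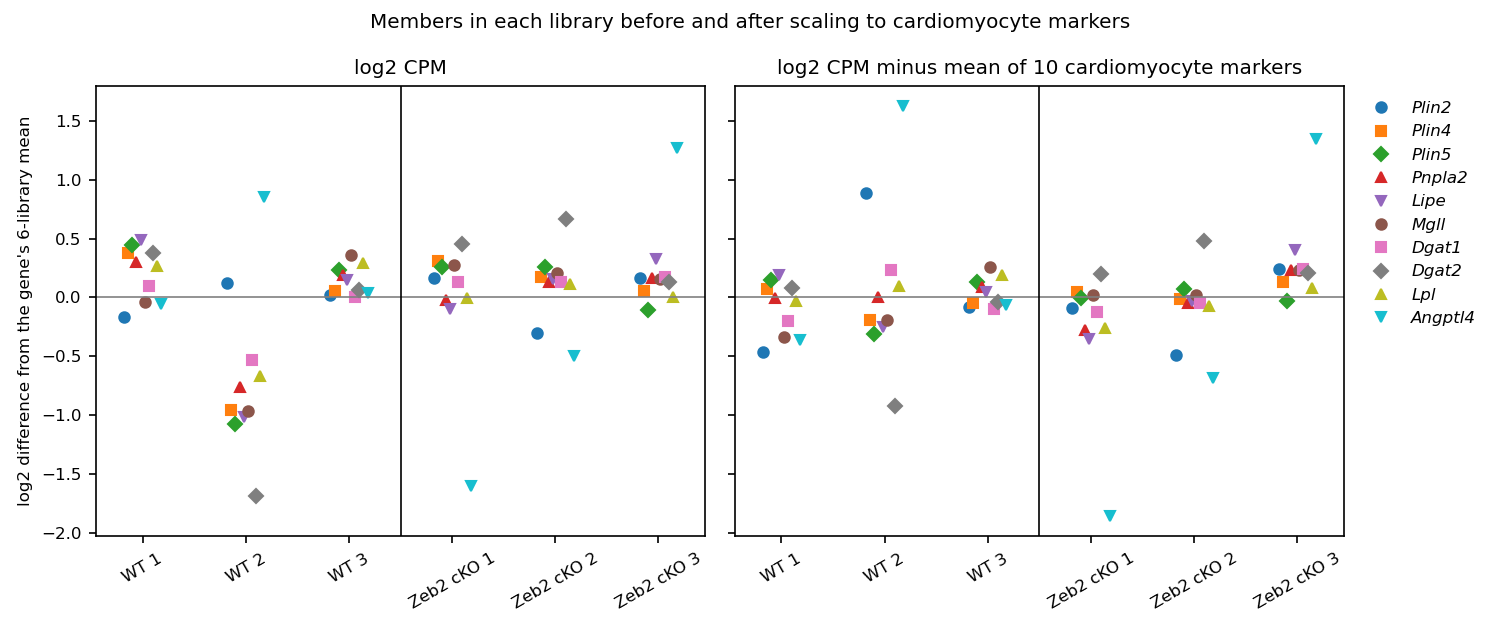
Log2 difference of each library from a gene's 6-library mean for the 10 members, as log2 CPM (left) and after subtracting the mean log2 CPM of 10 cardiomyocyte markers in the same library (right). On the right most members of WT replicate 2 move towards 0, Dgat2 remains low, and Plin2 and Angptl4 move further up.

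Ratios between related genes of the same library do not depend on library scaling, and 5 were compared. Plin5 counts were 1.41, 0.404 and 1.07 times those of Plin2 in WT and 0.982, 1.36 and 0.765 times in Zeb2 cKO replicates 1, 2 and 3. Dgat2 counts were 8.70, 3.21 and 7.48 times those of Dgat1 in WT and 8.93, 10.3 and 6.96 times in Zeb2 cKO libraries. Both ratios were lowest in WT replicate 2 and overlapped between genotypes. Lipe counts were between 0.303 and 0.412 times those of Pnpla2 in all 6 libraries, the steadiest of the ratios. The count of Angptl4 ran from 0.0019 to 0.0165 times that of Lpl, and the lowest ratio belonged to Zeb2 cKO replicate 1 and the highest to WT replicate 2. G0s2, the inhibitor of adipose triglyceride lipase, stood at 0.235 to 0.595 times the count of its coactivator Abhd5. None of the 5 ratios separated the genotypes (exact permutation tests, two-sided p between 0.4 and 0.9, adjusted p between 0.875 and 0.9). The differences in log2 ratio were 0.25 for Plin5 to Plin2, 0.072 for Lipe to Pnpla2, 0.54 for Dgat2 to Dgat1, -0.63 for Angptl4 to Lpl and 0.29 for G0s2 to Abhd5. Without WT replicate 2 they were -0.29, -0.037, 0.097, -0.023 and -0.069 in the same order. The sign thus turned for Plin5 to Plin2, Lipe to Pnpla2 and G0s2 to Abhd5.

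Further genes of the same pathways were read from a list of 37 that act on droplets, on glycerolipid synthesis or on lipoprotein lipase. Of these, 31 passed the filter on low counts, and the QL test of edgeR called 0 of the 31 at an adjusted and 0 at an unadjusted p under 0.05. Of the 31, 10 had a log2 fold change over 0.2 (15.9% of all genes) and 3 one under -0.2 (22.6%). Leaving out WT replicate 2 gave 6 and 1 of 32 tested. Their median was 0.085, and -0.020 without that library. Abhd5 was even across libraries with means of 26.5 ± 0.390 and 27.5 ± 3.30 CPM in WT and Zeb2 cKO (SD, n = 3 each). G0s2 ran from 6.15 CPM in WT replicate 2 to 15.7 CPM in WT replicate 1. Its log2 fold change was 0.25, and -0.038 without WT replicate 2. Hilpda, a hypoxia-induced lipase inhibitor, stayed between 1.08 and 1.94 CPM. The coat gene Plin3 had a log2 fold change of 0.34 (SE 0.24), and of 0.12 without WT replicate 2. For the droplet assembly genes the log2 fold change was 0.36 for Fitm1, 0.34 for Fitm2 and 0.0038 for Bscl2, which encodes seipin. These were 0.082, 0.049 and 0.12 without WT replicate 2. Gpam and Lpin1, which act before the DGAT step, were at 0.26 and 0.18, and Gpihbp1 and Lmf1, which anchor and mature lipoprotein lipase, at 0.15 and 0.12. Without that library Gpam was at 0.00097, and Lpin1, Gpihbp1 and Lmf1 were at -0.041, -0.040 and -0.071. The smallest unadjusted p-values belonged to Ces1d, a carboxylesterase, among higher genes (log2 fold change 1.06, SE 0.52, unadjusted p = 0.0805) and to the lysosomal lipase Lipa among lower genes (-0.61, SE 0.33, unadjusted p = 0.109, both by the QL test of edgeR). The next in each direction were Cidea (0.51, and 0.29 without WT replicate 2), which enlarges droplets, and Sel1l (-0.16), needed for the maturation of lipoprotein lipase. Lipa was at 21.7, 52.5 and 24.7 CPM in WT and at 20.1, 23.2 and 21.6 CPM in Zeb2 cKO libraries, and its log2 fold change was -0.097 without WT replicate 2. Ces1d was at 16.7, 4.33 and 12.2 CPM in WT and at 27.4, 29.6 and 12.4 CPM in Zeb2 cKO libraries, with a log2 fold change of 0.68 without that library, and DESeq2's Wald test gave it an unadjusted p of 0.0331. Ces1d has close paralogs beside it on the chromosome, and how the counting treated shared reads is not stated.

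Plin2, Plin5 and Angptl4 were also set beside 17 other PPAR target genes, all of which passed the filter. Of these, 0 had an adjusted and 0 an unadjusted p under 0.05 by the QL test of edgeR, 13 had a log2 fold change over 0.2 (15.9% of all genes) and 0 had one under -0.2 (22.6%). WT replicate 2 was the lowest library in 16 of the 17, beside 34.7% of all genes. Without it these counts were 2 (14.2% of all genes) and 0, and the median went from 0.30 to 0.047. Pdk4, which blocks glucose oxidation when fatty acids are plentiful, was at 221, 73.0 and 174 CPM in WT and at 106, 117 and 292 CPM in Zeb2 cKO libraries. Pdk4 was therefore highest in Zeb2 cKO replicate 3, as was Angptl4, but lowest in WT replicate 2, where Angptl4 was second highest. Acot1, a thioesterase, was at 0.982, 0.455 and 0.599 CPM in WT and at 1.10, 1.17 and 1.02 CPM in Zeb2 cKO libraries, without overlap (log2 fold change 0.70, SE 0.32, QL adjusted p = 0.957, edgeR), and its log2 fold change was 0.48 without WT replicate 2. Near-identical paralogs of Acot1 make its count uncertain. Ehhadh, a peroxisomal oxidation enzyme, had a log2 fold change of 0.40 and no overlap either, and was at 0.20 without that library. Acot2 completed the 3 genes of this list whose groups did not overlap, all with Zeb2 cKO higher, as in 3.39% of all genes. Cpt1a, which admits fatty acids to mitochondria, was at -0.076.

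Several members are far more abundant in adipocytes than in the heart, so adipocyte markers were examined in the same libraries. Of 15 such markers 6 passed the filter on low counts, and 4 had no more than 3 counts in any library. All 6 had a log2 fold change over 0.2 (15.9% of all genes), and their median was 0.95. Without WT replicate 2, 8 were tested, of which 6 were over 0.2 and 1, Pck1, was under -0.2, with a median of 0.70. Adipoq, which encodes adiponectin, had 3, 2 and 5 counts in WT and 25, 8 and 9 counts in Zeb2 cKO libraries, without overlap. Adipoq was below the filter, so the share of tested genes lying apart (3.39% with Zeb2 cKO higher) does not cover it. Plin1, the adipocyte coat protein, had 2, 1 and 2 counts in WT and 13, 3 and 4 counts in Zeb2 cKO libraries, and Cidec, which fuses droplets, 2, 3 and 3 against 23, 10 and 10. The sum of all 15 overlapped between the groups, at 134 to 196 CPM in WT and 183 to 240.3 CPM in Zeb2 cKO libraries. The sum of 12 markers was 1.00 to 1.95 CPM in WT and 2.23 to 8.03 CPM in Zeb2 cKO libraries. Fabp4, Cidea and Thrsp were left out of it after their values were seen, because heart tissue held more of them. This sum was highest in Zeb2 cKO replicate 1, where Car3 (4.11 CPM) and Cfd (1.66 CPM) made up most of it. Cfd, Pck1 and Acvr1c overlapped between the groups, and the Acvr1c mean was lower in Zeb2 cKO (0.126 against 0.170 CPM in WT). How often a sum trimmed in this way separates the groups was not determined. Among the members, Lipe (12.5 CPM), Pnpla2 (36.7), Lpl (1273) and Angptl4 (2.42) had their lowest Zeb2 cKO values in Zeb2 cKO replicate 1. Plin4 (92.2 CPM), Mgll (85.4), Plin2 (29.8) and Plin5 (29.3) had their highest there, and Dgat1 and Dgat2 lay between. Adig had a log2 fold change of 1.83 (unadjusted p = 0.00284) and Car3 one of 1.98 (unadjusted p = 0.0177, and 0.957 after adjustment for both, QL test of edgeR). They were at 1.70 and 1.88 without WT replicate 2. Car3 had its highest level in Zeb2 cKO replicate 1, and its log2 fold change was 1.00 without that library. Fabp4, found in adipocytes and in capillary endothelium, was at means of 157 ± 28.0 and 182 ± 29.3 CPM in WT and Zeb2 cKO (SD, n = 3 each). What part fat tissue has in the members' values was not tested.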

How the data were processed

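RNA-seq was available for 3 WT and 3 Zeb2 cKO heart samples 14 days post-MI. Genotypes and replicate numbers were read from the labels. Gene counts, not normalized, were deposited by the authors in 1 table for all libraries. Their methods name a STAR-based workflow and Gencode M4 for stranded single-end reads. Its version, the strand option and the treatment of reads with several matches are not given in the sources used here. Builds named in the submitters' processing notes are GRCm38 and mm10, and 0 columns of counts were left unmatched. The methods tested with DESeq, which was not used here.

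Symbols, coordinates and exon lengths came from Gencode M21 (GRCm38) by gene identifier, for 36345 of 38293 genes. TMM factors came from edgeR 4.0.16 under R 4.3.3, and filterByExpr at its defaults kept 14746 genes. Genotypes were compared with glmQLFit and glmQLFTest, with a prior count of 0.125 and Benjamini-Hochberg adjustment over all genes kept. Standard errors are the fitted coefficient divided by the square root of F, and 95% intervals use the total degrees of freedom. Single values and ratios were compared with exact permutation tests. DESeq2 1.42.0 was run as an alternative. In simulated libraries with the real means and library sizes, edgeR called 19 of 99 genes changed by 1 and 81 of 99 changed by 2 on the log2 scale, beside 8 of 14418 unchanged genes, in 14616 genes tested. Near-identical stretches were searched with BLAST (75 or more bases, 95% or more identical). The methods describe replicates as biological, and the labels do not say which animal each came from. The p-values set differences between groups against the spread between these samples. Depths were 37288174 to 51136331 counts, 60.5% to 67.0% of them mitochondrial.

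The members and lists were chosen with earlier results of these data known. Named genes were the members, Zeb2, a fixed set of pathway genes, and the 2 genes of each list and direction with the smallest unadjusted p. One gene of the PPAR target list is not reported here. Alternatives covered the normalization, the filter, the test, mitochondrial genes, the replicate number, leaving out each library, and cardiomyocyte markers as the reference, the last chosen after seeing the data.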

Additional observations from a re-analysis of the deposited data

How the results depend on the processing

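Each group held 3 samples, and WT replicate 2 had marker levels unlike the others. In simulated libraries 19 of 99 genes with a log2 change of 1 were called by edgeR, so changes of that size would mostly be missed. Under each alternative 0 members passed an adjusted p of 0.05. Over all genes that count was 0 in every edgeR alternative and 1 with DESeq2's Wald test, while leaving out single libraries gave between 122 and 1134 genes at an unadjusted p below 0.05, no filter on low counts gave 600 and DESeq2 gave 429, against 280. The normalization, filter, DESeq2 test and mitochondrial alternatives kept the sign of all 10 members.

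Leaving out single libraries moved log2 fold changes within -0.048 to 0.17 for Plin2, -0.039 to 0.55 for Plin4, -0.20 to 0.42 for Plin5, -0.15 to 0.30 for Pnpla2, -0.19 to 0.46 for Lipe, 0.043 to 0.64 for Mgll, 0.10 to 0.39 for Dgat1, 0.20 to 1.00 for Dgat2, -0.24 to 0.17 for Lpl and -1.29 to 0.31 for Angptl4. Without WT replicate 2 the sign changed in 6 members, and Dgat2 no longer had the largest change (0.20, against -0.24 for Lpl and 0.23 for Angptl4). Without Zeb2 cKO replicate 3 Angptl4 had it. The number of members over 0.2 ran from 2 without WT replicate 2 to 7. For other named genes whose sign changed the ranges were -0.044 to 0.12 (Abhd5), -0.038 to 0.60 (G0s2), -0.34 to 0.024 (Hilpda), -0.063 to 0.12 (Bscl2), -0.041 to 0.32 (Lpin1), -0.040 to 0.30 (Gpihbp1), -0.071 to 0.27 (Lmf1), -0.49 to 0.48 (Pdk4) and -0.19 to 0.046 (Cpt1a). Differences in log2 ratio lay within -0.29 to 0.62 for Plin5 to Plin2, -0.037 to 0.18 for Lipe to Pnpla2, 0.097 to 0.82 for Dgat2 to Dgat1, -1.42 to 0.014 for Angptl4 to Lpl and -0.069 to 0.60 for G0s2 to Abhd5. Relative to cardiomyocyte markers the difference was -0.23 for Plin2, -0.062 for Pnpla2 and -0.17 for Lpl, opposite in sign to the values on CPM. The causes of these changes were not tested beyond the values given.

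Replicate numbers 1, 2 and 3 occur in both genotypes, and no label pairs them. Deviations of same-numbered libraries from their group means correlated at 0.11, -0.17 and -0.16 across genes, and samples were not treated as pairs. With the replicate number as a block, edgeR called 0 members and 0 genes, against 247 genes with an unadjusted p below 0.05. The log2 fold change was then 0.79 for Dgat2 and -0.57 for Angptl4. Cidea, which missed an unadjusted p of 0.05 without the block, had an unadjusted p of 0.0150 with it. In this balanced design the block leaves differences in log2 ratio as they are by construction (0.54 for Dgat2 to Dgat1).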
